A study of Mus musculus with 10 samples.

Results

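The regions described here are stretches of the mouse genome that were neither unmethylated nor fully methylated in control testis and that lay away from the ends of genes. Each autosome was divided into 1 kb tiles, and a tile was included when it held 6 to 19 covered CpGs, had a level of 10 to 40% in the control libraries pooled, and did not touch the 1 kb on either side of the end of any protein-coding gene. Of 165978 tiles with at least 3 covered CpGs, 56478 were autosomal, held 6 to 19 CpGs and lay away from gene ends, and 6777 of these (12%) had the intermediate level. Of the 6777 tiles, 2650 lay inside protein-coding genes and 4127 between them. Since the control level chose the tiles, their control levels and every difference from control are given as descriptions. The levels of the arsenic libraries, the pattern of CpGs inside a tile and the surroundings are measures the choice did not use directly.

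The assay was reduced representation bisulfite sequencing (RRBS), in which a restriction enzyme enriches CpG-rich fragments and bisulfite turns unmethylated cytosines into thymines. The DNA came from testis of F2 mice, with 5 libraries of an arsenic group and 5 of a control group. The labels give tissue, generation and group, but not which ancestor received arsenic, the dose, the route, the strain or the age, and they do not say that each library came from its own animal. The p-values therefore speak only of how these libraries vary, and part of that may be technical.

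In mammalian genomes most CpGs are either almost fully methylated, as in gene bodies and between genes, or almost free of methylation, as in CpG islands at promoters. An intermediate level in a tissue can come from a mixture of methylated and unmethylated cells, from a difference between the parental copies of an imprinted locus, or from single molecules that are methylated at some CpGs only. Testis holds mainly germ cells, whose methylation pattern was erased and rebuilt before birth, together with somatic Sertoli, Leydig, peritubular and vascular cells. The deposited counts are per cytosine and do not link the CpGs of a read, so these sources cannot be told apart here.

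Some of the tiles reached annotated starts that lie inside or between protein-coding genes, such as alternative promoters and starts of long noncoding RNAs, and these show what the measured letters look like. RefSeq promoter windows (250 bases before to 50 after a start, GRCm38.p6, the assembly behind mm10) overlapped 295 of the 6777 tiles (4.35%), and in 187 tiles at least 1 covered CpG lay in such a window. Of the 204 windows so hit, 161 belonged to long noncoding RNAs and 43 to protein-coding genes. The letters CCGG, the site of MspI, an enzyme much used in RRBS and not named in the labels, stood in 193 of the 204 windows (94.6%), against 52.8% of all 32851 windows. CCGG reads the same on both strands and contains a CG. In the 4 windows below, printed along the strand of the gene, capitals mark the CpGs that were covered in all libraries, and other CG pairs were not covered. They were chosen after their values were seen, as windows with several covered CpGs in tiles lower in arsenic at an unadjusted p under 0.05. Epb41l1 encodes a membrane skeleton protein of the band 4.1 family, Scp2 a sterol carrier protein of peroxisomes, and Gm34552 and Gm39662 are long noncoding RNAs.

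Epb41l1, chr2:156475284-156475583, + strand: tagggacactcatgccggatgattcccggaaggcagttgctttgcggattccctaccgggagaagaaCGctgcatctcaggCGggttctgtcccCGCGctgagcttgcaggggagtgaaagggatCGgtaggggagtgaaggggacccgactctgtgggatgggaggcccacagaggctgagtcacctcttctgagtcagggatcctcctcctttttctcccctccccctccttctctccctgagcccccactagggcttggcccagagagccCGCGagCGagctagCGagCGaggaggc
Scp2, chr4:108118498-108118797, - strand: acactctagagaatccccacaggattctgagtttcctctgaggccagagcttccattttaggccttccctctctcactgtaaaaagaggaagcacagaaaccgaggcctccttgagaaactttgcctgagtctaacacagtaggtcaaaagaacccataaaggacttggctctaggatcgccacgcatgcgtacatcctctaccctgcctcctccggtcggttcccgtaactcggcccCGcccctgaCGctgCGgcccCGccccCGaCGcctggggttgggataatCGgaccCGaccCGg
Gm34552, chr12:74317113-74317412, - strand: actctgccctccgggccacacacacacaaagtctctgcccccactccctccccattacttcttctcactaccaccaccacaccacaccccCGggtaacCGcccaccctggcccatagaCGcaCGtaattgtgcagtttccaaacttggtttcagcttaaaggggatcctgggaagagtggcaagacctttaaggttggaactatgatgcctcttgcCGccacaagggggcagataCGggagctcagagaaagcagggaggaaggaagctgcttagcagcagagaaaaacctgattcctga
Gm39662, chr1:72640554-72640853, + strand: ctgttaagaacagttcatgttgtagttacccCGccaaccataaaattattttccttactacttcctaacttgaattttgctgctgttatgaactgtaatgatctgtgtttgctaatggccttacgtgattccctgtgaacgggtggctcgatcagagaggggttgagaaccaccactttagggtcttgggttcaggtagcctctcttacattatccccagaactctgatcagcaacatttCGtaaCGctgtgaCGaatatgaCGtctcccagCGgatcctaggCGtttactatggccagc

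The tiles also held several microRNA genes, whose products silence messenger RNAs that pair with their seed (bases 2 to 8 of the mature RNA, in capitals). The 6 mature sequences below, from RefSeq, are shown because their genes lie in or reach into the tiles described here. They were picked after the values were seen, from 20 mature sequences of 11 hairpins. No 2 of them share a seed.

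mmu-let-7e-5p: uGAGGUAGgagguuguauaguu
mmu-miR-125a-5p: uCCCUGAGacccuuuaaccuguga
mmu-miR-200c-3p: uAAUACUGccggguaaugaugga
mmu-miR-193a-3p: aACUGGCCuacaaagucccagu
mmu-miR-582-5p: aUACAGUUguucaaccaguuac
mmu-miR-1191b-3p: aGACUCACuauguagcccaagc

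Depth and the tissue were checked first. The libraries held 87658994 to 100355708 read calls in the arsenic group and 69771871 to 92434984 in the control group, with a median coverage per cytosine of 35 to 40 reads in arsenic and 27 to 36 reads in control. A tile of the set held a median of 512 to 574 read calls in the arsenic libraries and 397 to 534 in the control libraries, and never fewer than 60. Control libraries 4 and 5 had the largest shares of cytosines read as methylated in every read, 16.9% and 18.8%, against 11.1 to 14.9% in the arsenic libraries and 12.7 to 13.5% in the other controls. Promoters of imprinted genes that carry maternal methylation, which male germ cells lack, averaged 12.3% ± 0.224 in arsenic and 12.5% ± 1.40 in control (SD, n = 5 each; 18 of 32 genes measured). The regions upstream of H19 and Rasgrf1, which male germ cells methylate, held 3 and 5 covered CpGs. They averaged 84.0% ± 4.50 in arsenic and 84.3% ± 2.399 in control. Low levels at the first loci and high levels at the second are known of male germ cells, and neither list was entirely so. Promoters of the genes with paternal imprints (4 of 7 measured) were low, at 10.2% ± 1.57 in arsenic and 10.4% ± 1.23 in control.

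Inside the tiles the CpGs were methylated to similar, intermediate degrees, and the tiles were seldom made of a methylated and an unmethylated piece. In the 5 arsenic libraries pooled, which took no part in the choice, 75.7% of the 64903 CpGs stood at 10 to 40%, 15.9% under 10% and 0.260% over 90%. In the tile of median spread, the SD between its CpGs was 6.39 points in arsenic and 6.78 points in control. That spread was wider in tiles of the same CpG number and place with a control level of 40 to 60%, at 15.4 points in arsenic and 15.5 points in control. Tiles of the same level near gene ends had 8.51 points in arsenic and 8.89 points in control. The spread was narrower in tiles over 60%, at 4.41 points in arsenic and 4.68 points in control, and under 10%, at 2.44 points in arsenic and 2.60 points in control.

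The absence of a step inside the tile held for gene body and intergenic tiles alike. In 5895 of the 6777 tiles (87.0%) no CpG exceeded 60% in arsenic, 85.4% of those in gene bodies and 88.0% of those between genes. The limit on the tile mean in control bounds how many CpGs can be high, so this share follows in part from the choice. When each tile was divided at its middle CpG, the 2 sides differed by more than 20 points in 10.8% of the tiles, 12% in gene bodies and 10.1% between genes, against 32.0% of the tiles at 40 to 60% and 22.2% of the tiles near gene ends, 7.45% of the tiles over 60% and 0.373% of those under 10%. A median tile covered 299 bp between its outer CpGs, so most tiles report on a short stretch and not on the whole 1 kb.

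**Figure D1:**
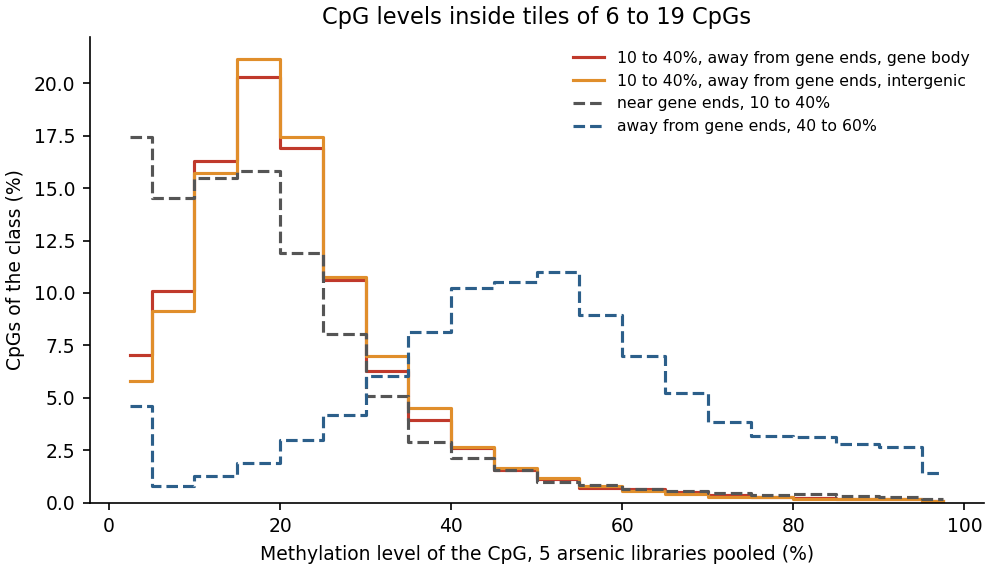
Share of CpGs (%, vertical axis) by methylation level in the 5 arsenic libraries pooled (%, horizontal axis, bins of 5 points), for tiles of 6 to 19 CpGs. Gene body and intergenic tiles of 10 to 40% have a single peak at 15 to 20%, holding 20.3% and 21.2% of their CpGs, while tiles near gene ends of the same level hold more CpGs close to 0.

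The tiles were commoner between genes than inside them, and where an adjoining tile was measured it was often partly methylated too. They made up 8.83% of the 30012 eligible gene body tiles and 15.6% of the 26466 eligible intergenic tiles. Of the tiles, 44.5% had an adjoining tile with at least 3 covered CpGs. Of these neighbours 46.6% stood at 10 to 40% in arsenic, 22.8% under 10% and 21.9% over 60%. Neighbours of tiles at 40 to 60% were at 10 to 40% in 25.2% of cases, and those of tiles near gene ends in 21.7%. For tiles under 10% the share was 14.2%, and for tiles over 60% it was 4.01%. Gene body tiles more often adjoined a CpG-dense tile of 20 or more CpGs, 9.96% of them (95% Wilson interval 8.88 to 11.2%), against 2.28% of intergenic tiles (1.86 to 2.78%). The intervals treat tiles as independent, which adjoining tiles are not. Among tiles of the same kind with a control level under 10% the share was 21.2%. Long noncoding RNA genes overlapped 7.96% of the gene body tiles and 20.4% of the intergenic tiles, and the median distance to a gene end was 9079 bp for gene body tiles and 33408 bp for intergenic tiles.

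Most tiles stood alone: 5914 had no adjoining tile of the set, 412 pairs adjoined and 13 runs held 3 tiles. A run means that adjoining tiles each met the level limits, while the stretches between their covered CpGs were not measured. The 3 runs named here are those with the smallest p among the 13. The run at chr2:174296001-174299000 lay inside Gnas, the imprinted gene of the stimulatory G protein alpha subunit, and averaged 12.5% ± 2.78 in arsenic and 15.5% ± 7.74 in control. The run at chr19:57323001-57326000, nearest to Ablim1, an actin-binding protein, averaged 12% ± 1.95 in arsenic and 24.7% ± 13.3 in control. A further run at chr4:151918001-151921000, nearest to Dnajc11, a mitochondrial chaperone, averaged 19.3% ± 3.41 in arsenic and 22.8% ± 2.72 in control (SD, n = 5 each). The control libraries were spread widely in the Gnas and Ablim1 runs.

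Library by library, the arsenic group stood lower in the mean of these tiles, by more than the SD between libraries of a group. Over gene body tiles the mean level was 19.5, 21.8, 21.6, 20.8 and 22.1% in arsenic libraries 1 to 5, and 21.9, 23.2, 23.9, 23.0 and 22.9% in control libraries 1 to 5. Over intergenic tiles it was 19.999, 22.5, 22.2, 21.2 and 22.6% in the arsenic libraries and 22.5, 23.3, 24.9, 23.5 and 23.0% in the control libraries. In each class the highest arsenic library, number 5, just exceeded the lowest control library, number 1, so the groups overlapped by that pair. Gene body tiles averaged 21.1% ± 1.01 in arsenic and 23.0% ± 0.701 in control, a difference of -1.84 points. Intergenic tiles averaged 21.7% ± 1.08 in arsenic and 23.4% ± 0.891 in control, a difference of -1.75 points (SD, n = 5 each). Leaving out arsenic library 1, the lowest of all, left a smaller difference of -1.37 points over all the tiles.

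Gene body and intergenic tiles did not separate in this respect. Within a library, the gene body mean minus the intergenic mean was -0.703 to -0.436 points in arsenic and -1.01 to -0.0784 points in control, so that the arsenic range lay inside the control range. The difference between groups was lower in arsenic on all 19 autosomes, from -2.09 points on chromosome 18 to -1.40 points on chromosome 15. It was -1.65, -2.01 and -1.92 points in tiles of 6 to 9, 10 to 14 and 15 to 19 CpGs. Tiles with the fewest, the middle and the most read calls had differences of -1.83, -1.75 and -1.77 points.

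**Figure D2:**
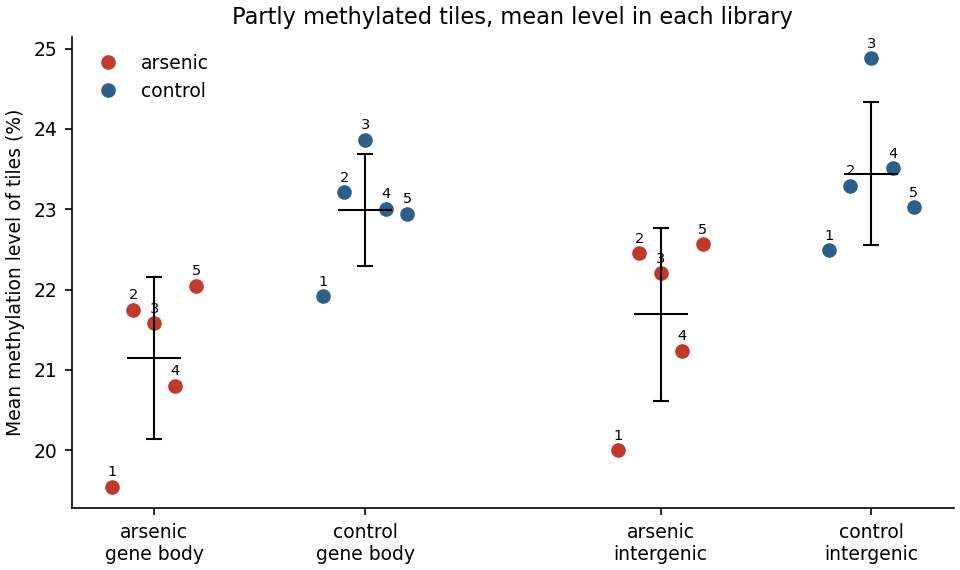
Mean methylation level (%, vertical axis) over the 2650 gene body and 4127 intergenic tiles in each library; points are libraries with their number, bars the mean and whiskers 1 SD over the 5 libraries of a group. The differences of the means are -1.84 points in gene bodies and -1.75 points between genes, and the groups overlap by arsenic library 5 and control library 1.

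The difference went with the level of the tile and was of similar size near gene ends. Tiles of the same CpG number away from gene ends averaged 3.94% ± 0.219 in arsenic and 4.21% ± 0.533 in control when the control level was under 10%. At 40 to 60% they averaged 49.5% ± 0.890 in arsenic and 50.5% ± 0.580 in control. Above 60%, where 42607 of the tiles lay, they averaged 87.9% ± 0.371 in arsenic and 87.8% ± 0.423 in control. The 1628 tiles of 10 to 40% near gene ends averaged 19.2% ± 0.799 in arsenic and 20.9% ± 0.723 in control, a difference of -1.67 points. To keep the control level from fixing the classes, tiles were also sorted by their level over all 10 libraries. The difference between groups was then -0.99 points at 5 to 10%, -1.73 at 10 to 20%, -2.14 at 20 to 30%, -1.73 at 30 to 40%, -0.93 at 40 to 60% and 0.18 at 80 to 100%. With members chosen by the arsenic level in place of the control level the difference was -1.94 points.

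**Figure D3:**
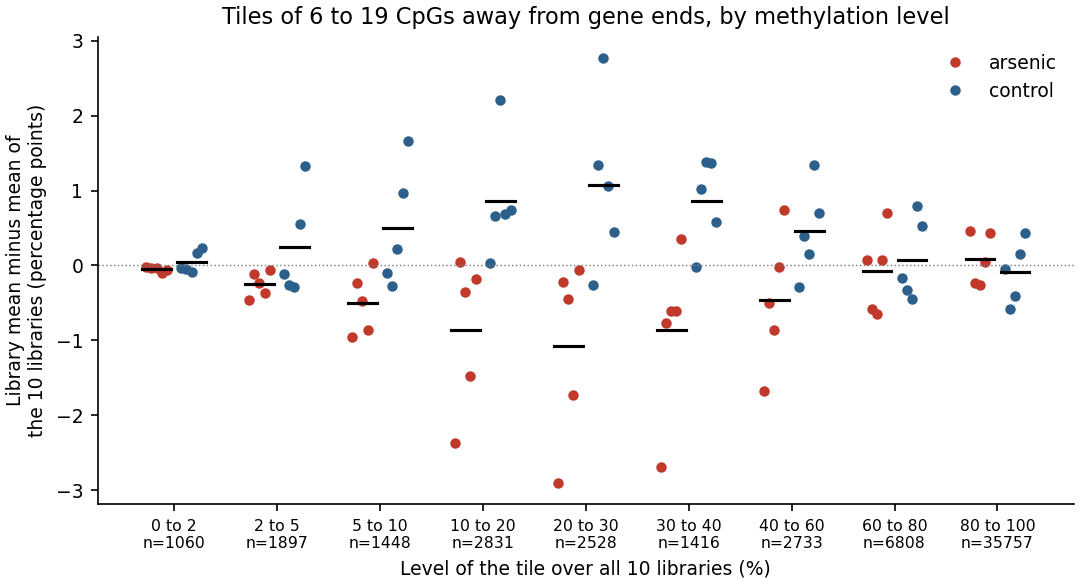
Mean level of each library minus the mean of the 10 libraries (percentage points, vertical axis), in tiles of 6 to 19 CpGs away from gene ends sorted by their level over all 10 libraries (%, horizontal axis, with the number of tiles). Points are libraries, in the order of their numbers within a group, and bars are group means; the gap between the bars is widest at 20 to 30%, where it is 2.14 points, and close to 0 in the outer bands.

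Some measures of the libraries moved with this difference. Promoters of germ cell genes (22 of 44 measured), many of which are methylated in somatic cells and not in germ cells, averaged 19.7, 24.0, 21.8, 20.2 and 21.4% in arsenic libraries 1 to 5 and 22.6, 25.6, 24.2, 23.6 and 23.0% in control libraries 1 to 5. Their means were 21.4% ± 1.69 in arsenic and 23.8% ± 1.17 in control. Promoters of Sertoli cell genes (7 of 15 measured) averaged 29.8% ± 1.93 in arsenic and 29.9% ± 1.66 in control, those of Leydig cell genes (6 of 12) 35.7% ± 4.31 in arsenic and 35.7% ± 3.69 in control, and those of peritubular, vascular and immune genes (3 of 11) 20.2% ± 3.21 in arsenic and 17.3% ± 1.95 in control. The arsenic libraries were also the deeper ones, as given above. The part of cell makeup and of depth in the difference was not tested. Without control libraries 4 and 5, those with the most fully methylated cytosines, the difference over all the tiles was -1.86 points.

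Tile by tile, no difference passed the test. A quasi-binomial model of methylated among all reads, fitted to all 165978 tiles with Benjamini-Hochberg (BH) adjustment, required both an adjusted p under 0.05 and pooled levels at least 10 points apart. It called 0% of all tiles and 0 of the 6777 tiles, and the lowest adjusted p was 0.474. At an unadjusted p under 0.05 it counted 727 of the 6777 tiles (10.7%), 624 lower in arsenic and 103 higher, against 5.80% of all tiles, 3.34% lower and 2.46% higher. Tiles of 10 to 40% near gene ends had a similar share, 10.6%, with 9.34% lower and 1.29% higher. In tiles under 10% it was 8.87%. The gene body tiles of the set gave 253 lower and 44 higher, and its intergenic tiles 371 lower and 59 higher, so the share was 11.2% in gene bodies and 10.4% between genes. With limma on log2 ratios the share of the tiles was 5.56%, 331 lower and 46 higher, against 5.14% of all tiles, 2.84% lower and 2.30% higher, and with the dispersion squeezed among these tiles alone, an alternative chosen after seeing the data, it was 7.39%, 445 lower and 56 higher, against 5.67% of all tiles, where tiles outside the set kept their p. The share was thus nearer to that of all tiles in both alternatives, nearest with limma, while lower tiles outnumbered higher ones in all 3 fits. The arsenic libraries lay entirely below the control libraries in 68 tiles (1.003%, against 0.483% of all tiles) and entirely above them in 9 (0.133%, against 0.349%). In tiles of 10 to 40% near gene ends they lay entirely below in 1.11% and entirely above in 0%.

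By dispersion the tiles varied more between libraries of one group than all the classes set beside them. By SD they varied more than each of these except tiles at 40 to 60%. The dispersion of the model is the spread beyond counting error within groups, and 1 is counting error alone if read calls are independent. Its median was 10.3 in these tiles, 10.7 in gene bodies and 10.2 between genes. The median was 4.53 over all tiles. In tiles of the same kind under 10%, at 40 to 60% and over 60% it was 8.46, 7.31 and 4.74. Near gene ends it was 8.86 in tiles of 10 to 40%. Dispersion also rose with depth, with medians of 8.24, 10.2 and 13.4 in tiles of the set with the fewest, the middle and the most read calls. All tiles had a median of 315 read calls, against 500.5 in the set, so these 2 are not matched for depth. The SD of a tile's level between libraries had a median of 5.26 points in arsenic and 6.07 points in control, and in tiles at 40 to 60% of 5.77 points in arsenic and 6.10 points in control. In arsenic and control, it was 4.63 and 5.36 points near gene ends and 3.14 and 3.45 points over all tiles. Tiles under 10% had 1.96 and 2.35 points, and tiles over 60% had 2.69 and 2.89 points. With the spread of the set, 295 of the 6777 tiles differed by 10 points or more between the pooled groups, 240 lower in arsenic and 55 higher, none of them called. Of the 6777 tiles, 6186 also stood at 10 to 40% in the arsenic libraries pooled, 424 were under 10% and 167 over 40%.

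Among gene body tiles with a lower arsenic level, those with the smallest p lay in Gpr179, Rbms3 and Arntl2, and none passed the adjusted threshold. Rbms3 encodes an RNA-binding protein, and its tile at chr9:117080001-117081000, 507255 bp from the nearer gene end, had 12.3, 9.46, 9.93, 7.69 and 10.2% in arsenic libraries 1 to 5 and 33.9, 22.6, 22.3, 33.0 and 17.6% in control libraries 1 to 5. All arsenic libraries lay below all control libraries, and each of the 13 CpGs was lower in arsenic. The difference in the pooled level was -16.6 points (quasi-binomial model, p = 9.53e-05, BH-adjusted p = 0.612). Arntl2 encodes a transcription factor of the circadian clock, and its tile at chr6:146820001-146821000 had 3.43, 4.98, 4.78, 3.91 and 5.86% in the arsenic libraries and 15.5, 43.2, 14.5, 22.8 and 22.8% in the control libraries. The arsenic libraries were close together and the control libraries wide apart, with control 2 far above the others, and the pooled difference was -18.8 points (quasi-binomial model, p = 9.68e-05, BH-adjusted p = 0.612). The 2 adjoining tiles of Gpr179, a receptor of retinal bipolar cells, at chr11:97337001-97339000 averaged 17.6% ± 3.23 in arsenic and 32.9% ± 4.79 in control, and 12.8% ± 1.49 in arsenic and 27.2% ± 4.81 in control, with BH-adjusted p = 0.474 for each in the quasi-binomial model.

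Between genes, the tiles with the smallest p and a lower arsenic level lay nearest to Daam1, Sec61b, Dnajb9 and Prdm14, which says nothing about control of those genes. Daam1 encodes a formin of the Wnt planar polarity pathway, and the tile at chr12:71812001-71813000, 17950 bp from its end, had 5.20, 6.38, 6.998, 3.27 and 5.80% in arsenic libraries 1 to 5 and 18.4, 14.4, 14.95, 8.67 and 14.6% in control libraries 1 to 5. The pooled difference was -9.45 points with all 7 CpGs lower (quasi-binomial model, p = 2.78e-05, BH-adjusted p = 0.474). The tile nearest to Sec61b, a subunit of the protein channel of the endoplasmic reticulum, at chr4:47519001-47520000, had 15.1, 20.4, 17.6, 12.3 and 13.8% in the arsenic libraries and 25.9, 26.4, 30.1, 21.6 and 26.5% in the control libraries. Its 17 CpGs were all lower in arsenic, and the pooled difference was -10.2 points (BH-adjusted p = 0.633). The tile nearest to Dnajb9, a chaperone of the endoplasmic reticulum, averaged 20.5% ± 1.74 in arsenic and 34.0% ± 3.30 in control, and the one nearest to Prdm14, a regulator of primordial germ cells, 13.1% ± 2.22 in arsenic and 20.5% ± 2.47 in control. In all 4 tiles, chosen for a small p in this direction, the groups did not overlap.

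The tiles with a higher arsenic level and the smallest p lay in Cit, Myo10, Cdk19 and Kmt2a, and between genes nearest to Gm597, Gm16434, Olfr338 and Cdc73. Cit encodes a kinase of cytokinesis, and its tile at chr5:116003001-116004000 had 34.1, 35.7, 40.6, 29.6 and 38.0% in arsenic libraries 1 to 5 and 29.0, 21.6, 24.5, 27.1 and 25.3% in control libraries 1 to 5. The groups did not overlap, and the pooled difference was 10.5 points (quasi-binomial model, p = 0.000952, BH-adjusted p = 0.806). Myo10 encodes a myosin of filopodia, and its tile at chr15:25780001-25781000 had the greatest difference in either direction, 29.7 points. Its levels were 54.7, 18.5, 24.5, 44.8 and 53.7% in the arsenic libraries and 6.87, 12.7, 19.7, 7.81 and 7.79% in the control libraries, on 64 to 136 read calls. The groups overlapped, since arsenic 2 lay below control 3 (BH-adjusted p = 0.806).

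Kmt2a, a histone H3 lysine methyltransferase, averaged 25.9% ± 3.46 in arsenic and 19.3% ± 1.73 in control, and Cdk19, a kinase of the Mediator complex, 39.2% ± 6.43 in arsenic and 29.3% ± 2.97 in control. The tile nearest to Gm16434 averaged 18.5% ± 1.64 in arsenic and 12.6% ± 1.69 in control, and the one nearest to Gm597 31.8% ± 3.801 in arsenic and 19.6% ± 5.88 in control. The tile nearest to Olfr338 averaged 51.9% ± 8.01 in arsenic and 33.1% ± 9.83 in control, and the one nearest to Cdc73 38.5% ± 11.1 in arsenic and 22.6% ± 3.29 in control (SD, n = 5 each). The groups did not overlap for Cdk19, Gm16434 and Cdc73. The adjusted p was 0.806 for each of these 6 tiles.

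**Figure D4:**
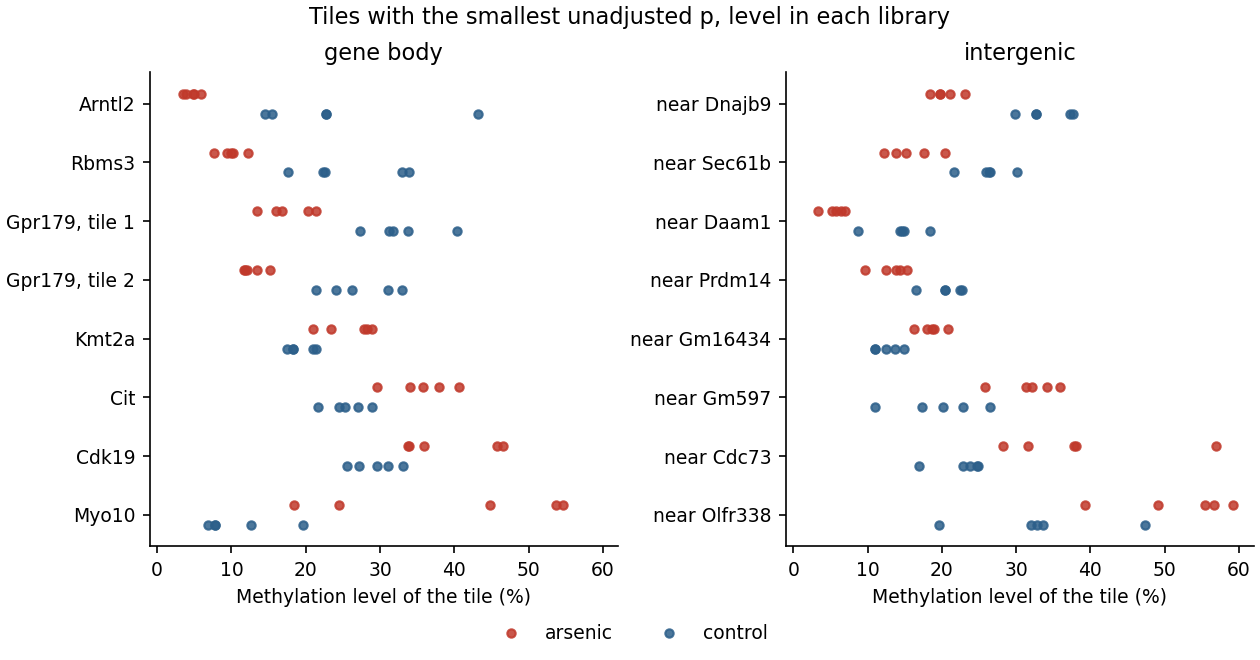
Methylation level of a tile (%, horizontal axis) in each of the 5 arsenic and 5 control libraries, for the 16 tiles with the smallest unadjusted p, 4 in each direction in gene bodies (left) and between genes (right, named by the nearest gene). Arsenic and control do not overlap in 12 of the 16 tiles, and the exceptions are Myo10, Kmt2a and those nearest to Gm597 and Olfr338. The tiles were chosen by p and direction, so this count follows largely from the choice. Over all tiles, arsenic lies entirely below control in 0.483% and entirely above it in 0.349%.

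CpG by CpG, all covered CpGs were lower in arsenic in the tile of Rbms3 and in those nearest to Daam1 and Sec61b, while 15 of 18 and 12 of 14 were lower in the Gpr179 tiles, 14 of 15 in the Arntl2 tile, and 6 of 7 and 14 of 19 in those nearest to Dnajb9 and Prdm14. These tiles were chosen by p and direction, and CpGs of a tile can share reads, so the counts follow in part from the choice. In the Rbms3 tile the arsenic CpGs stood between 6.59 and 14.4%, while the control CpGs were above 28% on one side of the stretch and lower on the other. Across the 16 CpGs nearest to Gm597 none was lower in arsenic, and the arsenic CpGs ran from 5.84 to 47.9%, with the same peaks and troughs in both groups. Over all the tiles, 62.1% of CpGs had a lower pooled level in arsenic, 62.2% in gene bodies and 62% between genes. The share was similar, 60.7%, in tiles of 10 to 40% near gene ends. It was 54.9% in tiles at 40 to 60%, 50.8% in tiles under 10% and 49.3% in tiles over 60%.

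**Figure D5:**
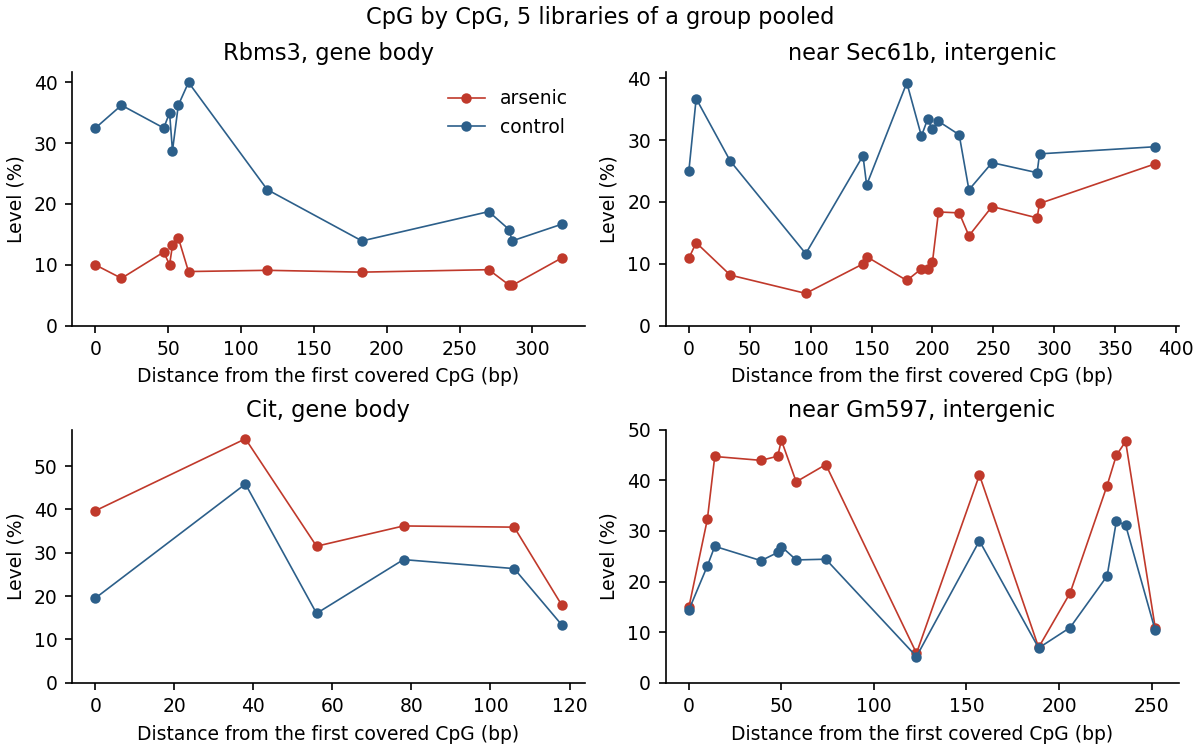
Methylation level of each covered CpG (%, vertical axis), with the 5 libraries of a group pooled, against its distance from the first covered CpG of the tile (bp, horizontal axis), in 4 of the tiles with the smallest p. Arsenic lies below control at all 13 CpGs in Rbms3 and all 17 nearest to Sec61b, and at or above it at all 6 CpGs in Cit and all 16 nearest to Gm597. The tiles were chosen by p and direction.

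The 4 promoter windows printed above were chosen in tiles with a lower arsenic level, so their direction was fixed by the choice. The tile with the Epb41l1 window, 57406 bp inside the gene, had 0, 3.04, 2.96, 0.565 and 0% in arsenic libraries 1 to 5 and 15.7, 15.5, 7.94, 19.3 and 3.49% in control libraries 1 to 5. All arsenic libraries lay below all control libraries (pooled difference -11.5 points, quasi-binomial model, p = 0.000327, BH-adjusted p = 0.749). In the 10 capital CpGs of the window the pooled arsenic level ran from 1.30 to 2.67% and the pooled control level from 10.9 to 15.3%. The Scp2 tile had 0.590, 1.43, 0, 0 and 0% in the arsenic libraries and 0, 11.5, 0, 32.3 and 25.3% in the control libraries, so the groups overlapped and the level in control rested on libraries 2, 4 and 5 (BH-adjusted p = 0.806). The Gm34552 tile averaged 1.95% ± 1.43 in arsenic and 9.91% ± 7.19 in control, and the Gm39662 tile 12.5% ± 6.42 in arsenic and 20.6% ± 3.03 in control. Of the 187 tiles with a covered promoter CpG, 18 were lower and 3 higher at an unadjusted p under 0.05. The shares were 9.21% lower and 1.52% higher in the whole set of 6777 tiles, and 3.34% lower and 2.46% higher among all tiles.

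A few tiles were close to unmethylated in arsenic and not in control, and the reverse was rarer. Of the tiles, 34 stood under 5% in arsenic, whereas 4 tiles chosen by an arsenic level of 10 to 40% stood under 5% in control. Kdm2b, a histone demethylase bound to CpG islands, had such a tile at chr5:122900001-122901000 over internal starts of the gene, with 0.463, 0, 5.93, 2.75 and 0.382% in arsenic libraries 1 to 5 and 10.2, 7.51, 9.77, 13.6 and 23.3% in control libraries 1 to 5. The groups did not overlap (quasi-binomial model, p = 0.000915, BH-adjusted p = 0.806), and the gene was singled out after its values were seen. In Lrrc2, a leucine-rich repeat gene, all 5 arsenic libraries read 0%, and the control libraries 9.66, 0, 4.76, 7.27 and 29.0%. The arsenic libraries together held 845 read calls in that tile. If read calls were independent, a count of 0 would allow a level of up to 0.355% (3 counts, counting error only). The 8 CpGs of the tile lay within 114 bp and can share reads, so the level allowed may be higher.

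The 11 microRNA genes lay in 10 tiles, all partly methylated, and the groups overlapped in each of them except the Mir1191b tile. That tile, at chr10:81416001-81417000 inside Nfic, a nuclear factor I transcription factor, had 25.5, 19.13, 18.99, 21.1 and 19.2% in arsenic libraries 1 to 5 and 16.9, 18.6, 15.2, 15.6 and 14.6% in control libraries 1 to 5. All arsenic libraries lay above all control libraries, by a narrow gap, with a pooled difference of 4.70 points (quasi-binomial model, p = 0.0260, BH-adjusted p = 0.849). No covered CpG lay in the Mir1191b hairpin, and the nearest was 273 bp away. The hairpins of Mirlet7e, Mir193a and Mir582 also held none, and those of Mir125a and Mir200c held 1 and 2. The levels are therefore those of the tiles. Mirlet7e and Mir125a, of families known for developmental timing and differentiation, share the tile at chr17:17830001-17831000 inside Spaca6, a sperm protein needed for fertilization, which averaged 20.1% ± 6.02 in arsenic and 22.4% ± 7.80 in control. The Mir200c tile at chr6:124718001-124719000 averaged 23.5% ± 4.79 in arsenic and 27.6% ± 12.2 in control, the Mir193a tile 10.9% ± 2.25 in arsenic and 10.1% ± 2.75 in control, and the Mir582 tile inside Pde4d 18.4% ± 6.22 in arsenic and 22.0% ± 6.54 in control.

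In gene bodies, 1979 of 9263 genes with an eligible tile held at least 1 tile of the set, 1480 of them a single one. The genes with most tiles were long. Hs6st3, a heparan sulphate sulphotransferase, held 11 among 21 eligible tiles, with pooled levels of 10.9 to 23.0% in arsenic and 17.2 to 25.3% in control. Zfhx3, a homeobox and zinc finger transcription factor, held 11 of 67, and Ctnna3, an alpha-catenin, 8 of 28. Gm37013, Gm38666 and Gm38667 held the same 8 of 20 tiles, since their spans overlap. By the pooled level, 6 of the 11 tiles of Hs6st3, 7 of the 11 of Zfhx3 and 6 of the 8 of Ctnna3 were lower in arsenic.

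Against a share of 8.83% over all eligible gene body tiles, the tiles made up 13.6% (49 of 359) in developmental transcription factor genes, 13.6% (31 of 228) in cadherin and protocadherin genes, 12.4% (58 of 469) in ion channel genes and 13% (24 of 185) in G protein coupled receptor genes. The share was 14.9% (15 of 101) in ADAM and ADAMTS protease genes, 11.1% (54 of 485) in zinc finger genes, 10.9% (11 of 101) in Wnt ligand and receptor genes and 10.3% (28 of 273) in RhoGAP and RhoGEF genes. It was 8.87% (43 of 485) in myosin, kinesin and dynein genes, 8.74% (55 of 629) in solute carrier genes, 8.57% (9 of 105) in semaphorin and plexin genes, 6.77% (18 of 266) in collagen and laminin genes and 5.32% (5 of 94) in genes of histone methylation and deacetylation enzymes. Tet and Dnmt genes held 4 of 39. These are counts without a test, and tiles of 1 gene are not independent.

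In each of these lists, and those that follow, the number with a lower pooled level in arsenic was counted beside 1813 of the 2650 gene body tiles, whose median difference was -1.75 points. Arsenic was lower in 33 of 49 tiles in developmental transcription factor genes, 21 of 31 in cadherins and 40 of 58 in ion channels, with median differences of -1.72, -2.03 and -2.23 points. The counts were 34 of 55 in solute carriers, 38 of 54 in zinc finger genes, 29 of 43 in myosins and kinesins and 19 of 24 in G protein coupled receptors, with medians of -0.83, -1.54, -1.65 and -1.98. In collagens and laminins 13 of 18 were lower, in ADAM proteases 11 of 15, in Wnt ligands and receptors 8 of 11, in semaphorins and plexins 6 of 9, in RhoGAP and RhoGEF genes 21 of 28, in histone enzyme genes 4 of 5 and in Tet and Dnmt genes 1 of 4. Kcnb2, a voltage-gated potassium channel, had 10.6, 19.2, 11.6, 21.8 and 15.4% in arsenic libraries 1 to 5 and 24.0, 20.1, 25.8, 27.3 and 20.4% in control libraries 1 to 5, the groups overlapping in 1 arsenic library. Myo1a, a brush border myosin, averaged 22.8% ± 3.002 in arsenic and 31.5% ± 5.12 in control. The adjusted p was 0.806 for both. The most deeply read tiles of 12 other lists, in Pax8, Pcdha1, Slc9a9, Col26a1, Gpr61, Adamts20, Zfp148, Lrp8, Sema3f, Arhgap21, Kdm2b and Tet1, had means of 11.7 to 36.8% in arsenic and 12.2 to 39.5% in control, and the groups overlapped in each.

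Genes with maternal imprints held 16 of their 86 eligible tiles in the set (18.6%), and 10 of the 16 were lower in arsenic. Igf2r, the receptor that clears insulin-like growth factor 2, carries its imprint in an intron, and its tile at chr17:12742001-12743000 had 5.22, 6.21, 4.10, 11.99 and 5.03% in arsenic libraries 1 to 5 and 13.8, 0, 16.1, 8.99 and 18.96% in control libraries 1 to 5. The groups overlapped (BH-adjusted p = 0.832). Usp29, a ubiquitin protease gene of the Peg3 domain, averaged 28.6% ± 4.95 in arsenic and 35.6% ± 2.27 in control, and Inpp5f, an inositol phosphatase, 8.71% ± 6.06 in arsenic and 18.6% ± 6.81 in control. The 4 Gnas tiles averaged 8.87 to 15.9% in arsenic and 11.5 to 18.3% in control. The others lay in Plagl1, Commd1 with Zrsr1, Trappc9 (2 tiles), Mest, Peg3, Snrpn, Kcnq1 and Cdh15, with means of 9.75 to 34.9% in arsenic and 12.5 to 35.7% in control. Of the paternally imprinted loci, Dlk1, Zdbf2 (2 tiles) and Rasgrf1 (2 tiles) held 5 of 11 eligible tiles, with means of 12.5 to 25.7% in arsenic and 14.6 to 25.5% in control. All 5 had a lower pooled level in arsenic, though the means over libraries of the 2 Rasgrf1 tiles were slightly higher in arsenic, 22.005% and 25.7% against 21.5% and 25.5% in control.

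Germ cell genes held 2 of 42 eligible tiles. Spo11, the enzyme that makes the double-strand breaks of meiosis, had 28.0, 20.1, 10.9, 25.4 and 22.1% in arsenic libraries 1 to 5 and 27.5, 25.3, 32.9, 27.2 and 31.9% in control libraries 1 to 5, overlapping by 2 arsenic libraries (BH-adjusted p = 0.849). The tile of Stag3, a cohesin subunit of meiosis, overlaps Gpc2 and averaged 27.3% ± 8.75 in arsenic and 29.8% ± 5.84 in control. Sertoli cell genes held 7 of 26, in Kitl, Inhbb, Sox9, Gata4, Dhh, Fshr and Trf, with means of 7.66 to 30.2% in arsenic and 10.2 to 37.3% in control, and 6 of the 7 were lower in arsenic. Leydig cell genes held 2 of 12, in Fads1 and Lhcgr, at 26.9% ± 3.31 and 20.5% ± 7.76 in arsenic and 28.4% ± 7.54 and 20.8% ± 10.6 in control. Of the vascular genes, Pecam1, an adhesion protein of endothelium, averaged 46.8% ± 8.26 in arsenic and 34.3% ± 8.60 in control, while Cdh5, the endothelial cadherin, averaged 19.6% ± 14.6 in arsenic and 32.7% ± 6.71 in control, and Myh11, smooth muscle myosin, 19.6% ± 11.3 in arsenic and 18.01% ± 9.42 in control. Pecam1 and Cdh5 lay on opposite sides, and neither passed (BH-adjusted p = 0.841 and 0.876).

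At the limits of the choice, Ebf3 and Lrrc2 had the lowest pooled control levels inside, 10% each, and Ltbp4 and the tile nearest to Spag9 lay just outside with 9.995% and 9.99%. At the upper limit the tiles nearest to Drosha and Tox had 40% and 39.97%, and Mthfd1l and the tile nearest to Ralgps2, just outside, had 40.01% and 40.02%. The extremes of dispersion do not rank precision, since dispersion also rises with read calls. The SDs between libraries were no larger in the tile of highest dispersion than in that of lowest dispersion. The tile nearest to Lrrc4c held 1485427 to 2688746 read calls and averaged 37.2% ± 1.15 in arsenic and 37.8% ± 0.777 in control with a dispersion of 824, and the tile nearest to Samd9l had a dispersion of 257. Tiles nearest to Gm4791 and Ptger2 had 0.177 and 0.310, with 27.7% ± 1.15 and 36.0% ± 1.95 in arsenic and 26.7% ± 1.26 and 36.3% ± 1.60 in control.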

How the data were processed

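Per the file headers, the deposited table holds counts of total, methylated and unmethylated reads at each CpG cytosine in each library, in the layout of methylKit, and the authors did not normalise these counts. Per the submitters' processing notes, the build was mm10 and the tools methylKit 1.22.0, Bismark 0.22.3 and Trim Galore 0.6.5, with no settings stated. The lowest coverage was 10 in every library. Both strands of a CpG were joined and levels in 1 kb tiles computed as methylated among all read calls, so a CpG read on both strands counts with both. Gene spans and promoter and microRNA sequences came from RefSeq on GRCm38.p6. At 98912 of 98920 covered CpGs in promoter windows the letters were CG.

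The group was tested in each tile with a quasi-binomial logistic model (Pearson dispersion squeezed across tiles as in limma, not under 1, F test), with BH adjustment over 165978 tiles, using numpy 2.4.6, scipy 1.17.1 and pandas 2.3.3 under Python 3.11.15, while limma 3.58.1 ran under R 4.3.3 with 0.5 reads added before log2. The model was tested on simulated data. The tiles, gene lists and naming rules were chosen with earlier results of these data known. The tiles named were those with the smallest p (4 per direction and place), those in the listed genes, the one with most reads per list, those at the limits and extremes of dispersion, the longest runs and the genes with most tiles. No tile was dropped for low values. Reads carry no molecular identifiers, so read calls are not independent molecules and intervals cover counting error only. Alternatives were the replicate block, a binomial test, limma, higher coverage, other choices of tiles, equal CpG weights, shifted tiles and leaving out libraries.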

Additional observations from a re-analysis of the deposited data

Results flagged for a closer look

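In the groups of 5 libraries behind the named tiles, 198 in all, the highest or lowest library stood apart from the rest in 6 (3.03%), while chance alone flags about 1 group in 20. In the Arntl2 tile 1 control library stood at 43.2%, against 14.5 to 22.8% in the others. In the tile nearest to Cdc73 1 control library stood at 16.9%, below 22.8 to 24.9% in the others. In the tile nearest to Drosha 1 arsenic library stood at 73.1%, above 19.5 to 27.1%. In the Igf2r tile 1 arsenic library stood at 11.99%, above 4.10 to 6.21%. In the tile shared by Commd1 and Zrsr1 1 control library stood at 29.5%, above 23.1 to 24.4%, and in the Fshr tile 1 control library stood at 5.51%, below 18.5 to 22.3%.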

How the results depend on the processing

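The lower mean of the arsenic libraries kept its direction in all settings run. Leaving out 1 library in turn gave -2.03 to -1.37 points over all the tiles, -2.11 to -1.44 in gene bodies and -1.99 to -1.33 between genes. The difference between gene body and intergenic tiles, -0.094 points, ranged from -0.24 to -0.0014 and was above 0 in other settings: 0.0098 without control libraries 4 and 5 and 0.038 with tiles shifted by 500 bp. Tiles chosen by all 10 libraries gave -1.88 points. Leaving out 1 library gave 529 to 696 lower and 93 to 138 higher tiles at an unadjusted p under 0.05, and 0 calls. A binomial test on reads, which ignores the spread between libraries, called 1986 tiles in all and 295 of the set, with 3043 lower and 1020 higher at an unadjusted p under 0.05 (59.95% of the set, against 40.7% of all tiles). It called 12 of the 16 tiles with the smallest p. limma called 1 tile in all, and gave 331 lower and 46 higher. Shifted tiles also gave 1 call in all. Tiles of 10 to 19 CpGs gave 288 lower and 37 higher, and a coverage of at least 20 gave 333 and 53 among fewer tiles. Squeezing the dispersion among the set alone gave 56 higher. The median SD between CpGs of a tile, 9.01 points as a mean over single arsenic libraries, was 7.97 at a coverage of at least 20. With the replicate number as a block there were 0 calls, with 772 lower and 130 higher at an unadjusted p under 0.05 (13.3% of the set, against 6.70% of all tiles). The numbers did not pair the libraries: correlations of same-numbered deviations were -0.0049 to 0.020, and arsenic 1 and 3 alone correlated best with their own number. Tiles hold few fragments, and differences under the spread of 5.26 to 6.07 points between libraries are hardly detectable in 1 tile.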
